A study of Mus musculus with 4 samples.

Results

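Of the 24442 genes in the count table, 86 code for interleukins, colony-stimulating factors (CSFs) and their receptors. They were chosen by symbol, as every gene whose name starts with Il and a digit or with Csf and 1, 2 or 3, after leaving out 5 genes of the interleukin-1 and interleukin-18 group (Il1a, Il1b, Il1rn, Il1r2 and Il18). Of the 86, 38 are ligands, 44 are receptor chains and 4 are neither. RNA had been sequenced from mammary gland cells of female mice aged 5 weeks, in 2 libraries of Lgr6-positive and 2 libraries of Lgr6-negative cells. All mice carried the Lgr6-eGFP-CreErt2 allele, a green fluorescent reporter with an inducible recombinase at the Lgr6 locus, and no treatment is given for either population. The gland had been digested and cells without lineage markers sorted, but the sources used here give neither the markers of lineage nor how Lgr6-negative cells were gated. Nor is it stated whether the 2 libraries of a population came from separate mice. The p-values below therefore set a difference only against the spread between these libraries, estimated with information shared over all tested genes.

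Interleukins and CSFs are secreted messengers that act on cells carrying matching receptor chains at the surface. Most of these receptors join a chain that binds a given ligand to a signalling chain shared by several ligands, such as gp130 (Il6st), the common beta chain (Csf2rb) and the common gamma chain (Il2rg), and pass the signal through JAK kinases to STAT transcription factors. Receptors of the interleukin-1 and interleukin-17 families use other adaptor proteins, and the CSF1 receptor is itself a kinase. In the mammary gland these systems are known from the resident leukocytes, among them the macrophages around the growing ducts, and from epithelial and stromal cells that respond to cytokines of the gp130 family.

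The libraries held 6819127 and 6995568 counts in Lgr6-positive cells, against 6920996 and 7167465 in Lgr6-negative cells, and 11959 to 14144 genes had at least 1 count. Levels are given as CPM, the counts of a gene set against the library's total after scaling by the trimmed mean of M values. The lowest level relied on, 3 counts, was 0.366 and 0.378 CPM in Lgr6-positive libraries, against 0.466 and 0.531 CPM in Lgr6-negative libraries. Lgr6 itself had 172 and 655 counts in Lgr6-positive cells, against 3 and 10 in Lgr6-negative cells, with a log2 fold change of 5.52 (SE 1.47, adjusted p = 0.0510 in edgeR's quasi-likelihood test with Benjamini-Hochberg adjustment). Lgr6 passed in 8 of the 11 alternatives tried. Its log2 fold change was 4.19 without Lgr6-positive replicate 2 (adjusted p = 0.349), 6.19 without Lgr6-positive replicate 1, 4.85 without Lgr6-negative replicate 1 (adjusted p = 0.0770) and 6.74 without Lgr6-negative replicate 2. Pan-leukocyte markers (Ptprc, Coro1a, Laptm5, Cd53, Rac2) summed to 329 and 139 CPM in Lgr6-positive cells, against 5102 and 5622 CPM in Lgr6-negative cells, and all 5 fell. Markers of luminal epithelium, among them Epcam and Krt8, summed to 3223 and 3269 CPM in Lgr6-positive cells, against 141 and 103 CPM in Lgr6-negative cells, and 5 of 6 were higher. For basal epithelium, with Krt5 and Krt14, the sums were 1898 and 2036 against 179 and 199 CPM, with 3 of 6 higher. Endothelial markers summed to 1227 and 1506 against 201 and 116 CPM (4 of 6 higher) and fibroblast markers to 712 and 451 against 29.0 and 59.8 CPM (2 of 6 higher). Dendritic markers summed to 20.9 and 6.43 CPM in Lgr6-positive cells, against 248 and 162 CPM in Lgr6-negative cells, with 1 of 5 lower. B cell markers summed to 25.9 and 25.7 CPM in Lgr6-positive cells, against 102 and 105 CPM in Lgr6-negative cells. Of the 5 B cell markers tested, edgeR called 0, none had an unadjusted p under 0.05, and DESeq2 called 1 lower. Of the 6 mast cell markers 5 had no counts in Lgr6-positive cells. In Lgr6-negative cells these had few counts or most from 1 library. Tpsb2 had none, Mcpt4 had 11 and 0, Cpa3 9 and 3, Fcer1a 31 and 4, and Ms4a2 74 and 3. Kit was the only mast cell marker tested, and it was higher in Lgr6-positive cells. Epithelial markers were thus the more abundant in Lgr6-positive cells and leukocyte markers in Lgr6-negative cells. In bulk samples, a smaller share of a cell type and less RNA per cell cannot be told apart, and the part of these marker differences in the results was not tested.

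More receptor chains fell than were higher in Lgr6-positive cells, the higher ones being gp130 and the orphan receptor Il17rd, and most ligands had few or no counts in both populations. Of the 86 members, 64 had at least 1 count and 22 had none. The filter on low counts kept 41 members (8 ligands, 31 receptors and 2 of the 4 others), and 45 were not tested. In edgeR's quasi-likelihood test with Benjamini-Hochberg adjustment over all 11661 tested genes, 3 of the 41 were higher in Lgr6-positive cells (background over all tested genes 4.49%) and 9 were lower (background 4.57%), 12 in either direction (background 9.06%). The calls comprised 1 higher and 1 lower ligand, 2 higher and 8 lower receptors, and neither of the tested others. Both Lgr6-positive libraries lay above both Lgr6-negative libraries for 11 of the 41 (background 30.0%) and below them for 22 (background 25.9%), and the populations overlapped for 8. The median log2 fold change of the 41 was -1.23, beside 0.10 over all tested genes, and that of the 31 receptors was -1.82. Members that passed the filter through the population in which they are high had to differ, so these counts and medians describe the tested members only.

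**Figure D1:**
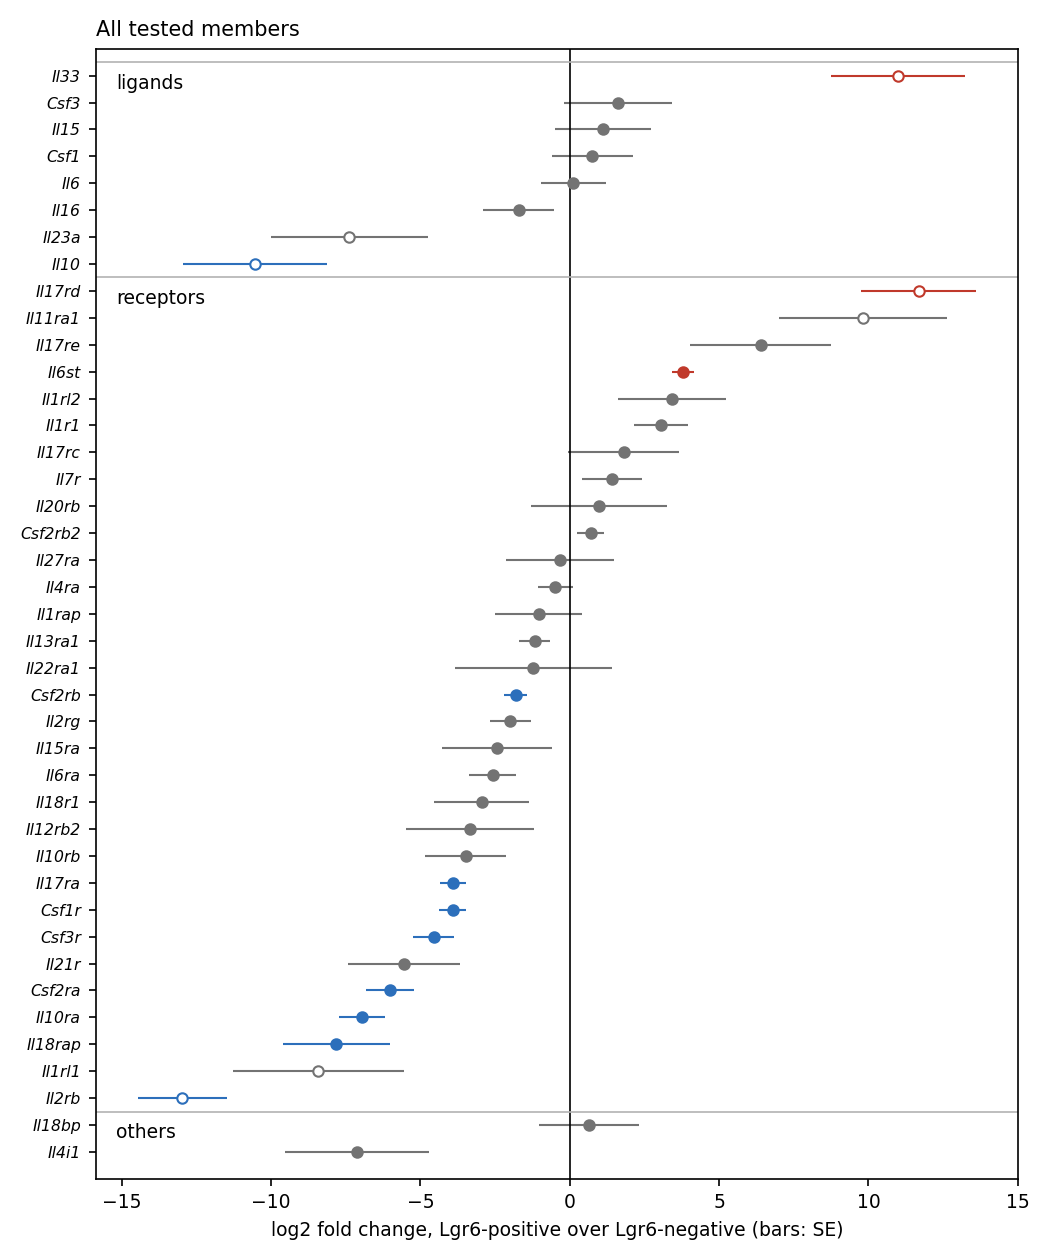
Log2 fold change (Lgr6-positive over Lgr6-negative, horizontal axis) of the 41 tested members with bars of 1 SE; red and blue marks passed the test as higher and lower, and open marks are members with no counts in 1 population, whose fitted value is not a bound. Of the 31 receptors 2 are red and 8 blue, and of the 8 ligands 1 is red and 1 blue.

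Of the 8 tested ligands, Il33 passed the test as higher and Il10 as lower in Lgr6-positive cells, and each had no counts in the other population. Il33 is an interleukin-1 family alarmin kept in the nucleus of barrier and stromal cells and released on damage. It had 42.5 and 29.1 CPM (348 and 231 counts) in Lgr6-positive cells, against no counts in either Lgr6-negative library. The level was at least 71.8-fold higher in Lgr6-positive cells, taking 3 counts per library as the floor (adjusted p = 0.0232, edgeR's quasi-likelihood test). The gene lies at chr19:29925114-29960718 (GRCm38). Il10, whose product restrains inflammatory responses of macrophages and other leukocytes, had no counts in either Lgr6-positive library, against 34.0 and 18.8 CPM (219 and 106 counts) in Lgr6-negative cells. It was at least 70.9-fold lower in Lgr6-positive cells (adjusted p = 0.0354, edgeR's quasi-likelihood test). The call was lost without Lgr6-negative replicate 1, where the adjusted p was 0.0747 and the bound at least 50.4-fold, and when libraries were scaled by their totals alone (adjusted p = 0.0506).

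The other 6 tested ligands did not pass the threshold. Il6, the founding ligand of the gp130 family, had 49.5 and 16.9 CPM in Lgr6-positive cells, against 46.1 and 15.0 CPM in Lgr6-negative cells. The populations overlapped, and the difference between the 2 libraries of each population was larger than that between populations (log2 fold change 0.12, SE 1.09, adjusted p = 0.972 in edgeR's quasi-likelihood test). Csf3, the granulocyte growth factor, had 10.4 and 8.07 CPM in Lgr6-positive cells, against 1.24 and 4.78 CPM in Lgr6-negative cells (log2 fold change 1.61, SE 1.79, adjusted p = 0.672). Its libraries did not overlap, but the SE exceeded the fold change. Il15, a growth factor of natural killer cells and memory T cells, had 14.6 and 9.46 CPM in Lgr6-positive cells, against 4.19 and 7.08 CPM in Lgr6-negative cells (adjusted p = 0.766). Csf1, the growth factor of macrophages, had 25.3 and 14.0 CPM in Lgr6-positive cells, against 6.21 and 17.0 CPM in Lgr6-negative cells (adjusted p = 0.815). The Csf1 libraries overlapped and the Il15 libraries did not. Il16, a chemoattractant of CD4+ cells, had 3.29 and 28.2 CPM in Lgr6-positive cells, against 57.1 and 46.0 CPM in Lgr6-negative cells (adjusted p = 0.446). Other genes overlap 17.4% of its exon bases, Stard5 the most. Il23a, a subunit of interleukin-23, had no counts in Lgr6-positive cells, against 13 and 22 counts in Lgr6-negative cells, a level at least 7.94-fold lower in Lgr6-positive cells (adjusted p = 0.124).

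Of the 30 ligands that were not tested, 18 had no counts in any library, among them Il2, Il3, Il4, Il5, Il17a, Il17f and Il22, products of activated T cells and innate lymphocytes. A further 6 had 1 to 9 counts in all. The remaining 6 had at least 10 counts, and for 5 of these nearly all counts came from a single library. Il34, the second ligand of the CSF1 receptor, had 70 counts and Il7, a survival factor of lymphocytes, had 49 counts, both in Lgr6-positive replicate 1 alone. Il17b had 2 counts in that library and 74 in Lgr6-negative replicate 2, and Il12b had 21 counts in Lgr6-negative replicate 2. Il13 had 1 count in Lgr6-positive replicate 2 and 31 in Lgr6-negative replicate 1. Il1f9, an interleukin-36 ligand, was the exception, with no counts in Lgr6-positive and 19 and 10 counts in Lgr6-negative libraries. None of the 6 ligands of the interleukin-17 family was tested, nor were Il3 and Il5, which signal through the common beta chain. At this depth a ligand with no counts was below 0.366 to 0.531 CPM in each library.

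**Figure D2:**
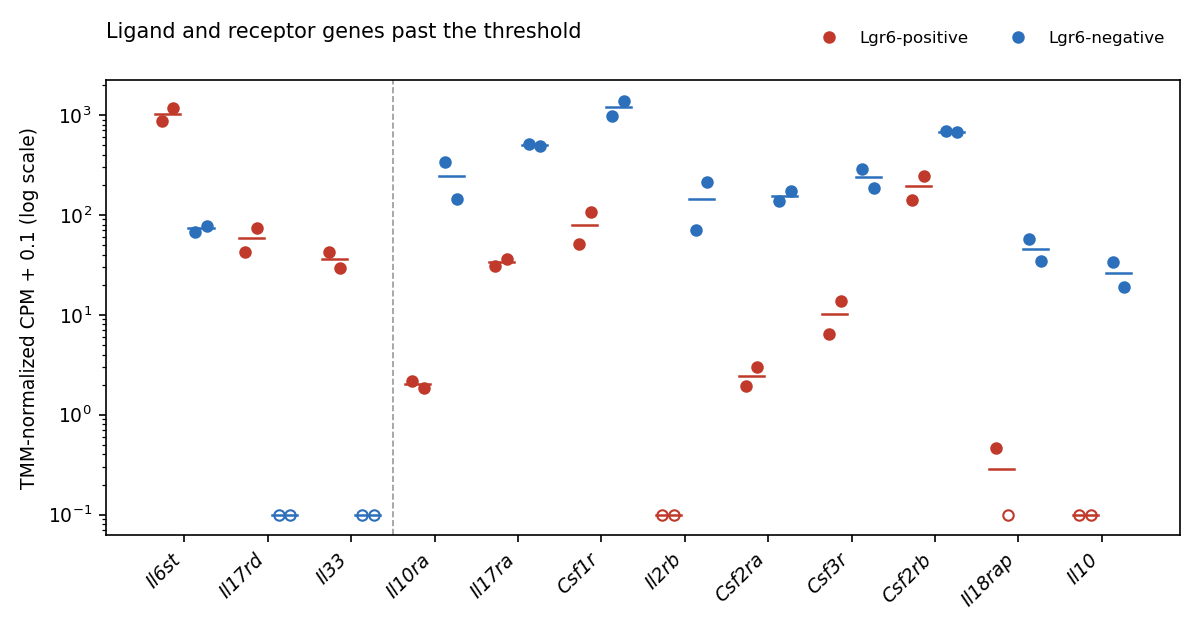
CPM of the 12 members past the threshold in each library, on a log axis of CPM plus 0.1, with Lgr6-positive libraries (red) left of Lgr6-negative libraries (blue); lines are means of the 2 libraries and open circles are libraries with no counts. Il6st, Il17rd and Il33 are higher in both Lgr6-positive libraries and the other 9 are higher in both Lgr6-negative libraries.

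The signalling chain gp130 (Il6st) rose in Lgr6-positive cells. It had 872 and 1162 CPM in Lgr6-positive cells, against 68.0 and 78.2 CPM in Lgr6-negative cells, or 1017 ± 205 and 73.1 ± 7.20 CPM (SD, n = 2 each). The populations were far apart, with a log2 fold change of 3.80 (SE 0.37, adjusted p = 8.72e-04 in edgeR's quasi-likelihood test with Benjamini-Hochberg adjustment). The gene lies at chr13:112464070-112510086 (GRCm38, forward strand). The 300 bases from 250 before to 50 after the start annotated by RefSeq, at chr13:112463820-112464119 (GRCm38.p6, forward strand), are shown because Il6st was the most abundant receptor chain per length in Lgr6-positive cells. They were 68.3% G and C with 33 CpG pairs, and nothing is capitalised because neither motif searched was found in them.
Il6st promoter: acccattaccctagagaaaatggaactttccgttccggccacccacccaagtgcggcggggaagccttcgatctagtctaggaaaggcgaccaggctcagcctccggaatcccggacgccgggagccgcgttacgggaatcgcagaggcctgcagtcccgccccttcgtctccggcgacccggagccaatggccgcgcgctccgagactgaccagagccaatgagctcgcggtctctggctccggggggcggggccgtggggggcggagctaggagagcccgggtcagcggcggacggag

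The other 4 tested members of the gp130 and interleukin-12 receptor family, Il6ra, Il11ra1, Il12rb2 and Il27ra, did not pass the test. Il6ra, which binds interleukin-6, had 22.1 and 139 CPM in Lgr6-positive cells, against 635 and 332 CPM in Lgr6-negative cells. The libraries did not overlap, but the 2 Lgr6-positive values were far apart and the test missed the threshold (log2 fold change -2.59, SE 0.78, adjusted p = 0.0743). It passed in 8 of the 11 alternatives, among them each that left out a library, with -1.80 without Lgr6-positive replicate 1 and -4.48 without Lgr6-positive replicate 2. Il11ra1, the interleukin-11 receptor chain, had 24.9 and 7.06 CPM (204 and 56 counts) in Lgr6-positive cells, against no counts in either Lgr6-negative library, at least 32.1-fold higher in Lgr6-positive cells (adjusted p = 0.0706, passing in 4 of the 11 alternatives). The bound was 14.2-fold without Lgr6-positive replicate 1 (adjusted p = 0.219) and 49.96-fold without Lgr6-positive replicate 2, where it passed (adjusted p = 0.0186). Its value is uncertain, since 46.3% of its 50-base stretches occur in other annotated transcripts, mostly of Gm13305. Il12rb2, an interleukin-12 receptor chain, had 3.78 CPM and no counts in Lgr6-positive libraries, against 18.6 and 20.2 CPM in Lgr6-negative libraries (adjusted p = 0.399). Other genes overlap 40.0% of its exon bases, Serbp1 the most. Il27ra had 9.03 and 11.9 CPM in Lgr6-positive cells, against 0.466 and 25.8 CPM in Lgr6-negative cells, and the populations overlapped (adjusted p = 0.951).

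Of the 20 cytokines and receptors of the same families that the symbols do not include, 14 were tested. Of these, 3 were higher (background over all tested genes 4.49%), 2 lower (background 4.57%) and 9 not called. Osmr, which joins gp130 to form the oncostatin M receptor, had 200.2 and 135 CPM in Lgr6-positive cells, against 1.40 and 2.12 CPM in Lgr6-negative cells (log2 fold change 6.56, SE 0.81, adjusted p = 0.00215 in edgeR's quasi-likelihood test). Lifr, the gp130 partner in the receptor of leukemia inhibitory factor, had 387 and 720.4 CPM in Lgr6-positive cells, against 121 and 59.6 CPM in Lgr6-negative cells (log2 fold change 2.62, SE 0.51, adjusted p = 0.0157). The log2 fold change was 3.21 without Lgr6-negative replicate 1. Both partner chains were thus higher in each Lgr6-positive library than in each Lgr6-negative library, as gp130 was. The ligand oncostatin M (Osm) fell, with 5.86 and 0.126 CPM in Lgr6-positive cells, against 474 and 505 CPM in Lgr6-negative cells (log2 fold change -7.34, SE 1.24, adjusted p = 0.00851), and -11.73 without Lgr6-positive replicate 1 and -6.41 without Lgr6-positive replicate 2. The ligand Lif had 109.7 and 55.5 CPM in Lgr6-positive cells, against 90.2 and 139.7 CPM in Lgr6-negative cells, and the populations overlapped (adjusted p = 0.726). Kit, the stem cell factor receptor, had 289 and 110.0 CPM in Lgr6-positive cells, against 20.6 and 31.1 CPM in Lgr6-negative cells (log2 fold change 2.95, SE 0.68, adjusted p = 0.0311). Its call was lost without Lgr6-positive replicate 1 (log2 fold change 2.08, adjusted p = 0.153) and with limma-voom (2.84, adjusted p = 0.0775). Ebi3, a subunit of interleukin-27, had 1 and 0 counts in Lgr6-positive libraries, against 138 and 154 in Lgr6-negative libraries, a ratio of 389 (95% counting interval 69.3 to 15430) and an adjusted p of 0.0487. That call was lost in 6 of the 11 alternatives, among them without Lgr6-positive replicate 2 (adjusted p = 0.0666), without Lgr6-negative replicate 1 (0.0529) and without Lgr6-negative replicate 2 (0.116).

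**Figure D3:**
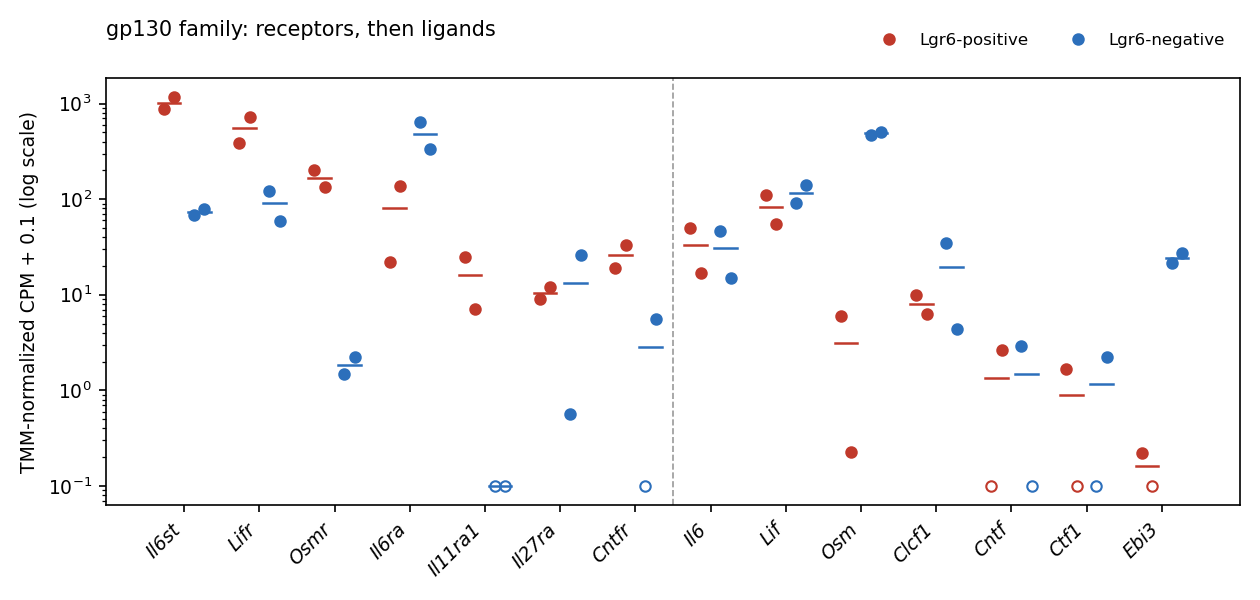
CPM of gp130 (Il6st), related receptor chains (left of the dashed line) and ligands (right of it) in each library, on a log axis of CPM plus 0.1, with Lgr6-positive (red) left of Lgr6-negative (blue); lines are means and open circles are libraries with no counts. Il6st, Lifr and Osmr are higher in both Lgr6-positive libraries, and Osm is higher in both Lgr6-negative libraries.

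The receptors of the macrophage and granulocyte CSFs all fell. Csf1r, the kinase receptor of CSF1 and interleukin-34 that macrophages need to survive, had 51.0 and 106 CPM in Lgr6-positive cells, against 983 and 1396 CPM in Lgr6-negative cells. The populations averaged 78.5 ± 38.8 and 1189 ± 292 CPM (SD, n = 2 each), with a log2 fold change of -3.92 (SE 0.46, adjusted p = 0.00168 in edgeR's quasi-likelihood test with Benjamini-Hochberg adjustment), and -4.57 without Lgr6-positive replicate 2. Csf3r, the receptor of the granulocyte factor, had 6.35 and 13.7 CPM in Lgr6-positive cells, against 289 and 186 CPM in Lgr6-negative cells (log2 fold change -4.56, SE 0.68, adjusted p = 0.00473), and -5.25 without Lgr6-positive replicate 2. Csf2ra, the chain specific to the granulocyte-macrophage factor, had 1.83 and 2.90 CPM in Lgr6-positive cells, against 136 and 172 CPM in Lgr6-negative cells (log2 fold change -6.02, SE 0.81, adjusted p = 0.00304). None of these overlapped between populations. Beside them, macrophage and monocyte markers summed to 496 and 274 CPM in Lgr6-positive cells, against 3415 and 3222 CPM in Lgr6-negative cells, with 5 of 10 lower in edgeR's test. Of that list Mertk went the other way without a call, with 96 and 69 counts in Lgr6-positive cells, against 1 and 1 in Lgr6-negative cells (ratio 61.9, 95% counting interval 16.9 to 515, adjusted p = 0.132), and Mrc1 had 107 and 26.6 CPM in Lgr6-positive cells, against 20.3 and 15.2 CPM in Lgr6-negative cells (adjusted p = 0.293). Neutrophil markers summed to 170.5 and 103 against 1055 and 1109 CPM, with 4 of 6 tested lower and Ly6g without counts in any library. Retnlg of that list had 79 and 149 counts in Lgr6-positive cells, against none in Lgr6-negative cells, at least 28.5-fold higher in Lgr6-positive cells without a call (adjusted p = 0.0725). DESeq2 called 1 marker higher in each list. Their part in the results was not tested. Other genes overlap 15.1% of the exon bases of Csf1r, Hmgxb3 the most.

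The common beta chain and its mouse-specific copy did not move together. Csf2rb is the signalling chain for interleukin-3, interleukin-5 and the granulocyte-macrophage factor, and Csf2rb2 is the copy that in the mouse serves interleukin-3 alone. Csf2rb had 142 and 243 CPM in Lgr6-positive cells, against 687 and 674 CPM in Lgr6-negative cells, and fell (log2 fold change -1.82, SE 0.39, adjusted p = 0.0223 in edgeR's quasi-likelihood test). Csf2rb2 had 208 and 242 CPM in Lgr6-positive cells, against 129 and 148 CPM in Lgr6-negative cells, with libraries that did not overlap but no call (log2 fold change 0.70, SE 0.44, adjusted p = 0.396). Csf2rb2 took 59.4% (exact Clopper-Pearson 95% interval 57.6 to 61.2) and 49.8% (48.2 to 51.4) of the counts of the pair in Lgr6-positive libraries, against 15.9% (14.9 to 16.9) and 18.0% (16.9 to 19.1) in Lgr6-negative libraries. The intervals cover counting error only. In sum the pair had 351 and 485 CPM in Lgr6-positive cells, against 817 and 821 CPM in Lgr6-negative cells. Fitted as the sum, chosen after the values were seen, the pair had a log2 fold change of -0.97 and did not pass (adjusted p = 0.0991), and Csf2rb on its own did not pass when libraries were scaled by their totals (-1.39, adjusted p = 0.0663).

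The copies lie side by side at chr15:78325752-78353847 (Csf2rb, forward strand) and chr15:78282507-78305721 (Csf2rb2, reverse strand, GRCm38), and their division of reads is uncertain where they are identical. Their coding sequences in GENCODE M21 were the same at 2504 of 2626 aligned bases without a gap (95.4%), with a longest identical run of 242 bases. Of their 50-base stretches over whole transcripts, 12.3% in Csf2rb and 18.9% in Csf2rb2 occur elsewhere. The 60 coding bases with the most differences are shown because reads of 50 bases can be told apart there. They are bases 304 to 363 of Csf2rb and 307 to 366 of Csf2rb2, counted from the start codon, and capitals mark the 13 positions that differ.
Csf2rb: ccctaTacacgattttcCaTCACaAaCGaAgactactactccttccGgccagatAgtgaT
Csf2rb2: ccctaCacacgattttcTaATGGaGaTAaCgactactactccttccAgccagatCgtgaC

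**Figure D4:**
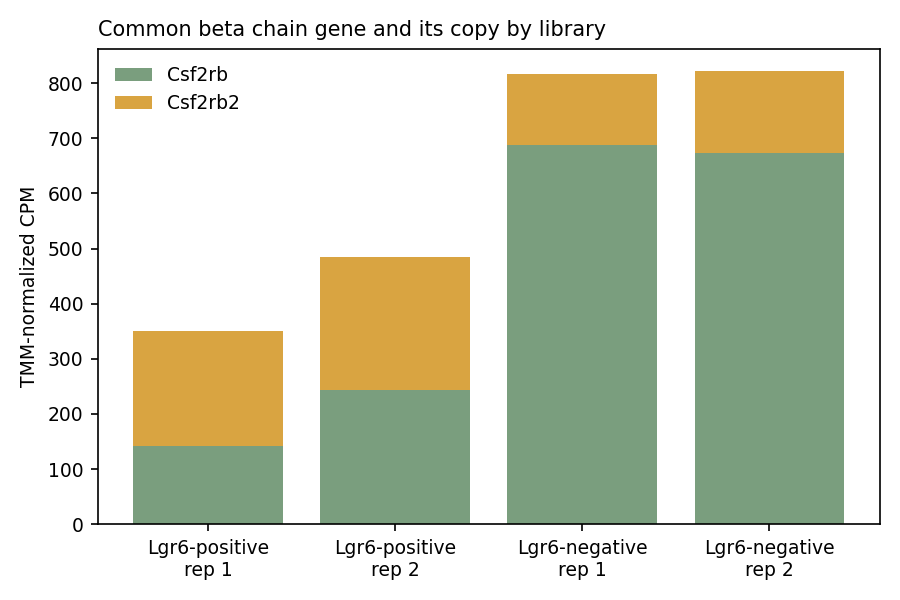
CPM of Csf2rb (green) and Csf2rb2 (yellow) stacked for each library, with Lgr6-positive libraries left of Lgr6-negative libraries. The stacks reach 351 and 485 CPM in Lgr6-positive libraries, against 817 and 821 CPM in Lgr6-negative libraries, and the Csf2rb2 part is 59.4% and 49.8% of them against 15.9% and 18.0%.

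Of the 6 tested receptor chains of the common gamma family, Il2rb fell and the other 5 did not pass. Il2rb, the signalling chain for interleukin-2 and interleukin-15 on natural killer and T cells, had no counts in Lgr6-positive libraries, against 71.0 and 215 CPM (457 and 1215 counts) in Lgr6-negative libraries. It was at least 384-fold lower in Lgr6-positive cells (adjusted p = 0.00242, edgeR's quasi-likelihood test). The bound was 191-fold without Lgr6-negative replicate 2 and 578-fold without Lgr6-negative replicate 1. Markers of natural killer and innate lymphoid cells summed to 0.244 and 0 CPM in Lgr6-positive cells, against 470.0 and 409 CPM in Lgr6-negative cells, and all 6 fell, with Ncr1, Klrb1c, Klrd1 and Nkg7 at 0 in both Lgr6-positive libraries. T cell markers summed to 8.05 and 19.0 CPM in Lgr6-positive cells, against 132 and 109 CPM in Lgr6-negative cells, where edgeR called 0 of the 5 tested, 4 were lower at an unadjusted p under 0.05 and DESeq2 called 3 lower. The part of these markers in the result was not tested.

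The common gamma chain itself (Il2rg) had 30.3 and 153 CPM in Lgr6-positive cells, against 315 and 411 CPM in Lgr6-negative cells (log2 fold change -1.99, SE 0.69, adjusted p = 0.111, passing in 5 of the 11 alternatives). It was -1.25 without Lgr6-positive replicate 1 and -3.61 without Lgr6-positive replicate 2, and it passed without the second of these (adjusted p = 1.01e-07) and without Lgr6-negative replicate 1 (adjusted p = 0.0156). The populations did not overlap, and other genes overlap 30.5% of the exon bases of Il2rg, Gm20489 the most. Il21r, the interleukin-21 receptor, had 0.854 and 0.126 CPM in Lgr6-positive cells, against 26.9 and 21.1 CPM in Lgr6-negative cells (log2 fold change -5.56, SE 1.88, adjusted p = 0.103). It passed in 2 of the 11 alternatives, DESeq2 and limma-voom. Il7r, which binds interleukin-7 and thymic stromal lymphopoietin, had 32.7 and 57.1 CPM in Lgr6-positive cells, against 17.1 and 16.6 CPM in Lgr6-negative cells (adjusted p = 0.459). Il4ra, the interleukin-4 and interleukin-13 receptor chain, had 72.2 and 70.1 CPM in Lgr6-positive cells, against 96.4 and 103 CPM in Lgr6-negative cells (log2 fold change -0.48, SE 0.60, adjusted p = 0.709). The 2 libraries of each population lay close together, and the populations did not overlap. Its partner Il13ra1 had 89.4 and 67.1 CPM in Lgr6-positive cells, against 157 and 196 CPM in Lgr6-negative cells (log2 fold change -1.17, SE 0.52, adjusted p = 0.205). Il15ra had 4.64 and 2.52 CPM in Lgr6-positive cells, against 37.6 and 1.59 CPM in Lgr6-negative cells, and the populations overlapped because the Lgr6-negative libraries differed (adjusted p = 0.488).

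The ligand-binding chain of the interleukin-10 receptor fell with its ligand. Il10ra had 2.07 and 1.77 CPM in Lgr6-positive cells, against 341 and 144 CPM in Lgr6-negative cells, or 1.92 ± 0.219 and 243 ± 139 CPM (SD, n = 2 each). The log2 fold change was -6.97 (SE 0.77, adjusted p = 0.00143 in edgeR's quasi-likelihood test), and -6.23 without Lgr6-negative replicate 1. The second chain, Il10rb, which other cytokines of the family share, had 10.4 and 1.77 CPM in Lgr6-positive cells, against 17.4 and 119 CPM in Lgr6-negative cells (log2 fold change -3.49, SE 1.35, adjusted p = 0.143). Other genes overlap 14.9% of its exon bases, Gm21970 the most. Both populations spread widely for Il10rb, though they did not overlap. Il20rb and Il22ra1, chains for interleukin-20 and interleukin-22, reached no more than 6.54 CPM in any library and overlapped between populations.

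Among the receptors of the interleukin-17 family, the shared chain fell and the orphan Il17rd was higher. Il17ra, the chain that all well-studied interleukin-17 receptors contain, had 30.6 and 36.3 CPM in Lgr6-positive cells, against 515 and 489 CPM in Lgr6-negative cells. These were 33.5 ± 4.02 and 502 ± 18.8 CPM (SD, n = 2 each), with a log2 fold change of -3.91 (SE 0.44, adjusted p = 0.00143 in edgeR's quasi-likelihood test). Il17rd, also known as Sef and best known as an inhibitor of fibroblast growth factor signalling, had 42.3 and 74.3 CPM (347 and 589 counts) in Lgr6-positive cells, against no counts in Lgr6-negative cells. It was at least 117-fold higher in Lgr6-positive cells (adjusted p = 0.0104). Il17re, the epithelial receptor of interleukin-17C, had 208 and 51 counts in Lgr6-positive cells, against 0 and 2 counts in Lgr6-negative cells. The ratio was 97.1 (95% counting interval 26.6 to 806), but the 2 Lgr6-positive libraries differed and the test missed the threshold (adjusted p = 0.128). Il17re passed in 2 of the 11 alternatives, DESeq2 and limma-voom. Il17rc, the usual partner of Il17ra, had 2.68 and 16.6 CPM in Lgr6-positive cells, against 2.17 and 3.36 CPM in Lgr6-negative cells, and overlapped (adjusted p = 0.641).

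In the interleukin-1 receptor family, 1 of the 6 tested chains, Il18rap, passed and fell. Il18rap, the accessory chain of the interleukin-18 receptor, had 3 and 0 counts in Lgr6-positive libraries, against 368 and 194 counts in Lgr6-negative libraries. The level was 249.8-fold lower in Lgr6-positive cells (95% counting interval 85.0 to 1215, adjusted p = 0.0301 in edgeR's quasi-likelihood test). The fitted log2 fold change was -7.82, with -11.26 without Lgr6-positive replicate 1 and -6.92 without Lgr6-positive replicate 2. Il18r1, which binds interleukin-18, had 17.7 and 0.126 CPM in Lgr6-positive cells, against 56.5 and 81.9 CPM in Lgr6-negative cells (log2 fold change -2.95, SE 1.60, adjusted p = 0.310). Neither chain overlapped between the populations.

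The window around the RefSeq start of Il18rap, 250 bases before to 50 after it at chr1:40515112-40515411 (GRCm38.p6, forward strand), is shown because it was the only window of a called member with a motif match. It was 42.3% G and C with 4 CpG pairs, and capitals mark GAGGAAGT, the core bound by the leukocyte factor PU.1.
Il18rap promoter: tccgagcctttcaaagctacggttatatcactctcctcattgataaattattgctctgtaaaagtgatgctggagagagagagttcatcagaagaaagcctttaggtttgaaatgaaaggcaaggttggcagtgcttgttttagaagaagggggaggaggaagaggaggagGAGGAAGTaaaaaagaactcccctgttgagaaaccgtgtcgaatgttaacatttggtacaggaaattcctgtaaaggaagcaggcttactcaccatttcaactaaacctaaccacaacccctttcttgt
The search covered both strands of the windows of the 67 members that RefSeq's table holds, and of all 32851 windows. GAGGAAGT was found in 3 of the 67 members (Il4i1, Csf2rb2 and Il18rap) and in 3.69% of all genes with a window (3.2% of windows). The STAT motif TTCNNNGAA was found in 11 of the 67 members and in 9.55% of all genes (8.3% of windows), and in none of the 6 called members with a window (Il6st, Il17rd, Il33, Csf2ra, Csf3r and Il18rap).

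Other chains of the interleukin-1 family did not pass. Il1r1, the signalling receptor of interleukin-1, had 112 and 61.9 CPM in Lgr6-positive cells, against 7.45 and 13.4 CPM in Lgr6-negative cells, and the libraries were well apart (log2 fold change 3.05, SE 0.91, adjusted p = 0.0729, passing in 4 of the 11 alternatives, among them without Lgr6-positive replicate 2 at an adjusted p of 0.0189). Il1rl2, the interleukin-36 receptor, had 9.64 and 19.3 CPM in Lgr6-positive cells, against 1.09 and 1.59 CPM in Lgr6-negative cells (log2 fold change 3.42, SE 1.80, adjusted p = 0.296). Il1rl1, known as ST2 and the receptor of interleukin-33, had no counts in Lgr6-positive cells, against 12 and 58 counts in Lgr6-negative cells, at least 16.3-fold lower in Lgr6-positive cells (adjusted p = 0.111), with a bound of 5.01-fold without Lgr6-negative replicate 2 and 27.6-fold without Lgr6-negative replicate 1. Il33 and its receptor were thus each without counts in a different population, though the receptor missed the threshold. The shared accessory chain Il1rap had 10.6 and 5.80 CPM in Lgr6-positive cells, against 22.0 and 11.9 CPM in Lgr6-negative cells (adjusted p = 0.752).

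Of the 13 receptors that were not tested, 3 had no counts (Il23r, Il13ra2 and Il1rapl2) and 5 had 1 to 9 counts in all. Il2ra, the high-affinity interleukin-2 chain, had 6 and 0 counts in Lgr6-positive cells, against 146 and 8 in Lgr6-negative cells. Il9r had none in Lgr6-positive cells, against 48 and 1, and Il3ra none, against 12 and 6. Il5ra had 2 and 19 counts in Lgr6-positive cells, against 2 and 1 in Lgr6-negative cells, and Il17rb had 29 and 0, against 4 and 0. As with the ligands, most of these counts came from a single library of a population. Of the 4 members that are neither ligands nor receptors, Il18bp, a secreted trap for interleukin-18, had 28.7 and 1.89 CPM in Lgr6-positive cells, against 14.1 and 5.66 CPM in Lgr6-negative cells (adjusted p = 0.882). Il4i1, an amino acid oxidase, had 0.244 CPM and no counts in Lgr6-positive libraries, against 4.19 and 35.2 CPM in Lgr6-negative libraries (adjusted p = 0.103). However, other genes overlap 86.3% of its exon bases, Tbc1d17 the most. Il22ra2 had 1 count in all and Il1bos none.

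Set against each other per kilobase of exon, the receptor chains had a different order in the populations. In Lgr6-positive cells Il6st had the highest mean of the 44 receptors, with 78.5 and 105 CPM per kilobase, followed by Csf2rb2 with 43.9 and 51.0 and Il2rg with 12.7 and 64.0 CPM per kilobase. The Il6st libraries lay above those of both, whereas Csf2rb2 and Il2rg overlapped. In Lgr6-negative cells Csf1r had the highest mean, with 170.3 and 242 CPM per kilobase, followed by Il2rg with 132 and 172 and Csf2rb with 94.4 and 92.6 CPM per kilobase. Csf1r and Il2rg overlapped there, and Il2rg lay above Csf2rb in both libraries. Csf1r had rank 7 in Lgr6-positive cells and Il6st rank 17 in Lgr6-negative cells. Among ligands, Il6 with 13.7 and Il33 with 12.4 CPM per kilobase had the highest means in Lgr6-positive cells, against 20.1 for Il10 and 12.6 for Il6 in Lgr6-negative cells.

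**Figure D5:**
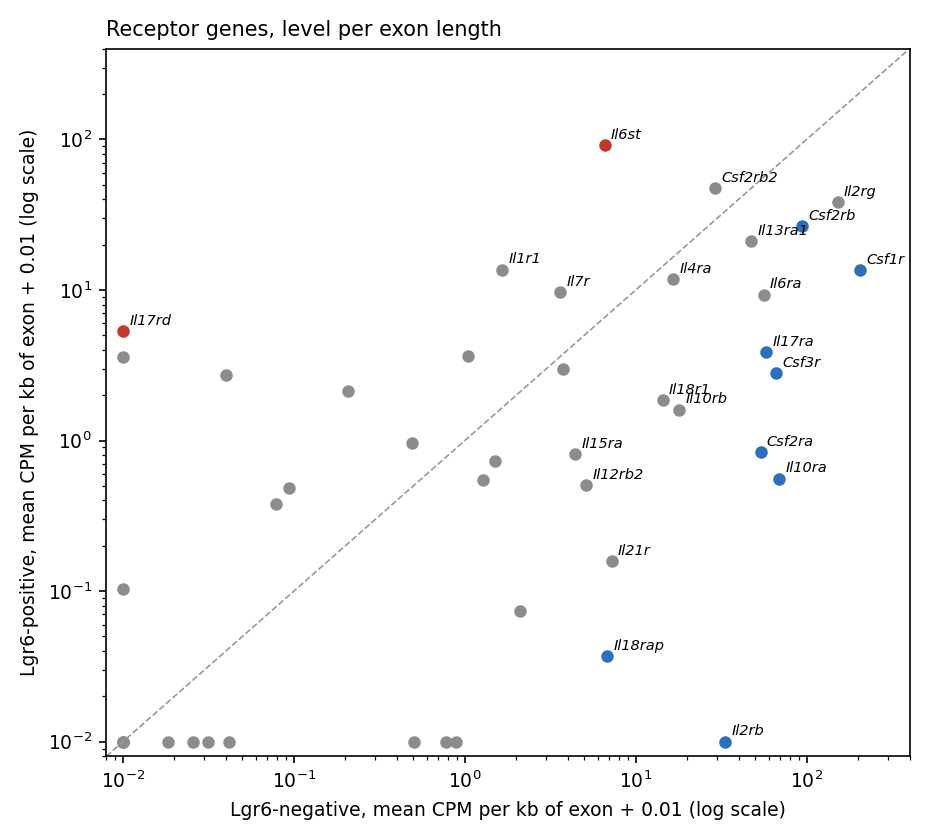
Mean CPM per kilobase of exon (plus 0.01, log axes) of each receptor chain in Lgr6-positive cells (vertical) and Lgr6-negative cells (horizontal); red and blue points passed the test as higher and lower in Lgr6-positive cells, and the dashed line marks equal means. Il6st has the highest mean in Lgr6-positive cells (91.6) and Csf1r in Lgr6-negative cells (206), and points at the lower or left edge had no counts in that population.

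Few of the genes examined downstream of the receptors passed the test. None of the 4 JAK kinases passed edgeR's test, none had an unadjusted p under 0.05 and DESeq2 called none, with Jak1 at 206 and 282 CPM in Lgr6-positive cells, against 420.3 and 333 CPM in Lgr6-negative cells. Stat3, the main factor below gp130, had 250.4 and 267 CPM in Lgr6-positive cells, against 276 and 354 CPM in Lgr6-negative cells (adjusted p = 0.743). Of the 16 feedback inhibitors edgeR called 2 lower (background over all tested genes 4.57%), the leukocyte phosphatases Ptprc and Ptpn6, and 0 higher (background 4.49%). Ptprc is also in the pan-leukocyte list. At an unadjusted p under 0.05, 2 were higher, Socs2 (log2 fold change 2.68) and Pias2 (2.74), and DESeq2 called 2 higher. Both Lgr6-positive libraries lay above both Lgr6-negative libraries for 7 of the 16 (background 30.0%) and below them for 3 (background 25.9%). Ptpn6 had 6.59 and 13.6 CPM in Lgr6-positive cells, against 174 and 191 CPM in Lgr6-negative cells (log2 fold change -4.17, SE 0.70, adjusted p = 0.00816), and -4.81 without Lgr6-positive replicate 2. Ptprc, the pan-leukocyte antigen CD45, had 48.1 and 23.3 CPM in Lgr6-positive cells, against 1734 and 1184 CPM in Lgr6-negative cells (log2 fold change -5.35, SE 0.48, adjusted p = 5.80e-04), and -5.97 without Lgr6-positive replicate 1. Socs3, the inhibitor that gp130 signalling induces, had 259 and 233 CPM in Lgr6-positive cells, against 127 and 150 CPM in Lgr6-negative cells, with no overlap and no call (log2 fold change 0.83, SE 0.44, adjusted p = 0.294). Of the 13 genes listed around signalling of the Toll, interleukin-1 and interleukin-17 receptors, edgeR called 0 and DESeq2 called 1 higher. At an unadjusted p under 0.05 in edgeR's test 1 was higher, Sigirr. It had 50 and 497 counts in Lgr6-positive cells, against 4 and 0 in Lgr6-negative cells.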

How the data were processed

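RNA sequencing counts of 2 Lgr6-positive and 2 Lgr6-negative libraries were analysed, grouped by their sample labels. The values that the authors deposited are expected counts, with no scaling for depth. Per the submitters' processing notes, RSEM 1.2.22, STAR 2.4.2a and mm10 were used. Neither annotation nor strand setting is stated in the sources used here. Without the strand, reads of overlapping genes cannot be told apart. The estimated counts were rounded to whole counts, which changed 3.36% to 4.86% of the genes of a library. Rn45s took 17.2% and 14.5% of counts in Lgr6-positive and 18.7% and 30.8% in Lgr6-negative libraries. Replicates were not the same library (chi-square per degree of freedom 100.9 and 86.4).

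After filterByExpr with a minimum count of 10 and a total of at least 15, 11661 genes were tested with edgeR 4.0.16 in R 4.3.3 (glmQLFit and glmQLFTest, group as the only factor, TMM scaling) with Benjamini-Hochberg adjustment and a threshold of 0.05. Standard errors (SE) were obtained from the fold change and the F statistic. Alternatives changed the scaling, filter, test (DESeq2 1.42.0, limma-voom from limma 3.58.1), design and libraries. Positions, exon lengths and transcripts came from GENCODE M21, and promoters from RefSeq (GRCm38.p6). Scripts were tested on simulated data of 11661 genes. There 0 of 67 genes changed 2-fold were called, 2 of 67 changed 4-fold and 33 of 66 changed 16-fold. Of the unchanged genes, 2 were called. A gene that did not pass may therefore still differ between the populations.

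Members, lists and rules were chosen with earlier results of these data known. The genes named are every member past the threshold, up to 4 other ligands and 4 other receptors in each direction by smallest p, untested members with at least 10 counts, and up to 4 genes of each pathway list past the threshold in each direction. The other tested members, and Jak1, Stat3, Socs3, Sigirr and Lif, are given for completeness and were chosen after their values were seen. The STAT list is not reported here as a whole.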

Additional observations from a re-analysis of the deposited data

How the results depend on the processing

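Of the 12 members past the threshold, all 12 remained so in each of the 11 alternatives except scaling by library totals (10 of 12, losing Il10 and Csf2rb) and leaving out Lgr6-negative replicate 1 (11 of 12, losing Il10), and none reversed. Scaling by library totals moved the median log2 fold change of all tested genes to 0.55, against 0.10, and the share of calls that were higher to 65.5%, against 49.6%. It left 332 genes lower, against 533, a median of -0.71 for the members, against -1.23, and 0 ligands lower, where 2 had an unadjusted p under 0.05. With no filter 967 genes were higher (against 524) and 854 lower, 4 receptors were higher (against 2), and the members' median was -1.99. DESeq2 called 1412 genes higher and 1003 lower, with 5 receptors higher, and limma-voom called 4 receptors higher. Without each library in turn, which leaves a population with a lone library assumed to vary like the others, 678 to 952 genes were higher and 540 to 1028 lower, the upper values without Lgr6-positive replicate 1. Then 0 to 1 ligands were lower, 2 to 4 receptors higher (4 without Lgr6-positive replicate 2), 9 to 12 receptors lower, and the median ran from -2.28 (without Lgr6-positive replicate 2) to -1.02. Il6, not called (0.12), ran from -0.86 without Lgr6-positive replicate 1 and -0.50 without Lgr6-negative replicate 2 to 1.12 without Lgr6-negative replicate 1. The causes were not tested. Same-numbered libraries did not deviate together (correlation -0.02). A single correlation over all tested genes cannot show whether these libraries were paired, and the labels do not state it. The fit with the replicate block called 678 genes higher and 662 lower, 1 ligand in each direction, 2 receptors higher and 10 lower, and kept all 12 members. The receptors' median, -1.82, was -1.22 with the block, -1.30 with limma-voom and -2.46 with no filter. With 2 libraries a population, 45 of 86 members, 30 of them ligands, had too few counts to test.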
